A study of Homo sapiens with 8 samples.

Results

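The IGF receptor axis was examined as 9 genes: the receptors IGF1R, INSR and IGF2R, the adaptors IRS1 and IRS2, and the binding proteins IGFBP2, IGFBP3, IGFBP4 and IGFBP6. They were chosen by symbol, by matching the Ensembl identifiers of the deposited table to GENCODE, and all 9 were found among its 43869 genes. All 9 were expressed, and 178 of the 126470 H3K27ac peaks lay within 20 kb of at least 1 of them.

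The study compared treatment-naive H3122 cells, a human lung adenocarcinoma line driven by the EML4-ALK fusion, with derivatives that had evolved resistance to ALK tyrosine kinase inhibitors (TKIs). The lines with values were naive H3122, erCriz0 (kept in 0.5 µM crizotinib), erAlec0 (2 µM alectinib) and erLor0 (2 µM lorlatinib). Each was measured by 1 bulk RNA-seq library and 1 ChIP-seq library for H3K27ac, a histone mark found at active promoters and enhancers. The other 4 samples of the series were not analysed here: 2 more resistant lines named erCriz1 and erLor1, cells treated with lorlatinib, and pooled input. Each resistant line is a single derivation, so a difference between lines cannot be told apart from chance differences between cultures, and no p-value or error is given for any of them. All 4 lines grew in medium with serum and insulin, the ligand of INSR, so the axis was measured with ligand present. RNA was isolated after a drug holiday, and the ChIP-seq cells were labelled as kept in DMSO, the solvent of the inhibitors.

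IGF1R and INSR are receptor tyrosine kinases that bind insulin-like growth factors and insulin and can pair into hybrid receptors. They phosphorylate the adaptors IRS1 and IRS2, which recruit PI3K and so switch on AKT and mTOR and hold FOXO factors out of the nucleus. IGF2R has no kinase and carries IGF2 to lysosomes, whereas the IGFBPs bind the ligands outside the cell and can restrain or prolong their action. In lung cancers IGF1R and its adaptors are known as a bypass route around inhibited receptor kinases.

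RNA and peak values were rlog values, a log2 of the normalized read count that DESeq2 draws toward the mean of the 4 libraries where reads are few. Changes of weak genes and weak peaks are therefore understated, and the depth of each library is unknown. Changes were taken as resistant line minus naive on the rlog scale. A gene or peak is called up at a change of 1 or more and down at −1 or less, the limit used throughout. A gene was called expressed when it reached 4.64, the log2 of 25 reads, in at least 1 library, and 12701 genes did. Of 8 lung adenocarcinoma markers 7 were expressed, with a summed log2 level of 15.86 to 16.43 over the 4 libraries, and NAPSA was below the minimum. None of 5 leukocyte markers was expressed, and their summed level was 4.11 to 4.82. Of 4 fibroblast markers with values only COL1A1 was expressed, and of 4 endothelial markers KDR and CDH5 were, with PECAM1 and VWF below the minimum. As in any bulk sample, fewer cells with a transcript and less of it per cell cannot be told apart.

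The windows below are the 250 bases before the main transcription start of 5 members, from RefSeq on GRCh38.p14, read 5′ to 3′ on the strand of the gene. INSR, IGF1R and IRS1 are shown because their start peaks had the largest changes among the receptors and adaptors in erLor0 (INSR, IGF1R) or erAlec0 (IGF1R, IRS1), and IGFBP2 and IGFBP3 because their RNA differed most between lines. Capitals mark GC boxes, searched as GGGCGG and, for the other strand, CCGCCC. Overlapping matches were counted apart, so a run of capitals can hold several.
INSR, chr19:7294415-7294664, minus strand: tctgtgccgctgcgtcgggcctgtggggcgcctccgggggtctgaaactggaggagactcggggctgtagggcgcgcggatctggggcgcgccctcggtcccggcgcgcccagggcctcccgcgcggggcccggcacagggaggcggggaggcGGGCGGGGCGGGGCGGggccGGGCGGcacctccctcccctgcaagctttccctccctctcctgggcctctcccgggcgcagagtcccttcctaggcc
IGF1R, chr15:98648289-98648538, plus strand: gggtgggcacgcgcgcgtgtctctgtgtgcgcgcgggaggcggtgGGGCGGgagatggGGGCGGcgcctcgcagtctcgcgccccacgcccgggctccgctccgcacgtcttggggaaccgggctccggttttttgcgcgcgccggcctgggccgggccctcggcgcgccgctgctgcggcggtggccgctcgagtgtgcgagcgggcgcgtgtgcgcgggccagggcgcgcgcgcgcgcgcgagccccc
IRS1, chr2:226799821-226800070, minus strand: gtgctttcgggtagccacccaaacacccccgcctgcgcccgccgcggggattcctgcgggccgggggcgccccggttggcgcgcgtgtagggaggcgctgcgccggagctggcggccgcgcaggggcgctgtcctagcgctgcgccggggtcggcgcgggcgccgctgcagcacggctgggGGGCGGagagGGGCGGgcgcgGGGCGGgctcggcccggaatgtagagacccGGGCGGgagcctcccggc
IGFBP2, chr2:216633170-216633419, plus strand: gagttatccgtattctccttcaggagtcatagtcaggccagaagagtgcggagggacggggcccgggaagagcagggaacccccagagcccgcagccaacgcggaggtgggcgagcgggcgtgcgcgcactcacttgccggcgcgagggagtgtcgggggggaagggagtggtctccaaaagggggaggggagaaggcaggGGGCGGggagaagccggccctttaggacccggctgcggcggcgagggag
IGFBP3, chr7:45921273-45921522, minus strand: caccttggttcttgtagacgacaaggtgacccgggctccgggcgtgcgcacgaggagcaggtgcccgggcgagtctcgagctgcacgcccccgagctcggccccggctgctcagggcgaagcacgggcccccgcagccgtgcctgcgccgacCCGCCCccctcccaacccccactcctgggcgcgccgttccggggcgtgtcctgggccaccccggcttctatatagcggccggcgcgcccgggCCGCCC

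INSR and IRS1 held 4 GC boxes each, IGF1R and IGFBP3 2 and IGFBP2 1, and those of IGFBP3 lay in the reverse orientation. All 9 members held at least 1 at their main start, against 42.6% of the 35116 RefSeq windows of the same length. Those windows include alternative starts, so here and below the sets compared are unlike. At an alternative start of IGFBP2 (chr2:216659317-216659566) 0 GC boxes were found. The GC content of the members' windows was between 61.2% for IGFBP6 and 81.2% for IGF1R, with a median of 58% over all windows. The TATA box TATAAA, searched on both strands, was found in 1 of 9 members, IGFBP4, against 10.7% of all windows. Of the other motifs searched on both strands, GTAAACA (FOXO) was found in IGFBP6 alone, against 2.98% of all windows, and GGAATG (TEAD) in IRS1 and IGFBP6, against 11.9%. TGANTCA (AP-1) and TTCNNNGAA (STAT), each in 6.57% of all windows, were found in none of the 9. A match describes these letters and is not a measured binding site.

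Among the 9 members, RNA of the receptors and adaptors differed from naive cells by less than the limit in every resistant line, whereas 2 of the 4 binding proteins passed it. In erCriz0 0 members were up and 2 down, IGFBP2 and IGFBP3, where 2.65% of all expressed genes were up and 1.65% down. In erAlec0 0 were up and 1 down, IGFBP3, against 2.46% and 2.07% of expressed genes. In erLor0 1 was up, IGFBP2, and 1 down, IGFBP3, against 1.1% and 0.74%. Per kb of exon, a scale on which genes can be compared, the log2 level in naive cells ran from IGFBP4 (8.54), IGFBP3 (7.84), IGFBP2 (7.44), IGF1R (7.14) and IGF2R (7.04) through IGFBP6 (6.42), IRS2 (5.39) and IRS1 (4.45) to INSR (3.65). Without replicates no neighbours in this order can be said to differ. With the length of the canonical transcript only, IGFBP2 came first at 9.18 with IGFBP4 at 8.54, and the last 4 places were the same.

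**Figure D1:**
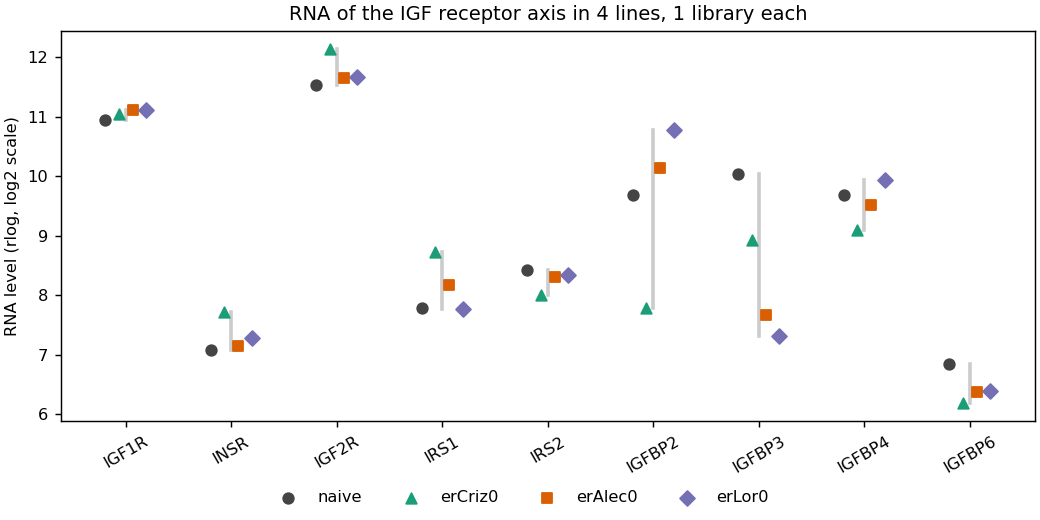
RNA level (rlog, log2 scale) of the 9 members in naive, erCriz0, erAlec0 and erLor0 cells, 1 point per library, with a grey line over the range of the 4. IGFBP2 and IGFBP3 spread over 2.99 and 2.72 units, whereas IGF1R spread over 0.18.

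IGF1R, the receptor for IGF1 and IGF2 (ENSG00000140443.15, chr15:98648539-98964530, plus strand), had nearly the same RNA level in all 4 lines. Its level was 10.94 (naive), 11.04 (erCriz0), 11.12 (erAlec0) and 11.11 (erLor0). The changes of 0.09, 0.18 and 0.17 were all positive and small, and 22.5% of expressed genes were likewise higher in all 3 lines. In a list of 53 receptor tyrosine kinases with values, 31 of them expressed, IGF1R ranked 5 per kb of exon in naive cells, between ERBB3 (7.55) and EGFR (6.84), and 6 in each resistant line. By canonical transcript length it ranked 8 in all 4 lines. ALK, the target of the inhibitors, had rlog levels of 8.18 (naive), 10.65 (erCriz0), 9.58 (erAlec0) and 8.10 (erLor0), and its ranks in the same order were 15, 5, 8 and 17. The exon length used for these ranks is that of the whole ALK gene. How much of its RNA came from the EML4-ALK fusion was not measured, so its place among the other kinases is uncertain.

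The H3K27ac peaks of IGF1R differed more between lines than its RNA. It had 73 paired peaks, of which 24 paired with no other gene. The peak over its start (chr15:98647048-98656937) also covers the start of the antisense transcript IRAIN. That peak stood at 9.05 (naive), 9.49 (erCriz0), 10.66 (erAlec0) and 10.28 (erLor0). It was thus lowest in naive cells, with changes of 0.44, 1.61 and 1.23. Over the 11080 expressed protein-coding genes with a start peak the median change was 0.35, 0.27 and 0.43, so a higher start peak was the rule in all 3 lines.

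Over all 73 peaks the median change was −0.15 (erCriz0), 0.59 (erAlec0) and 0.15 (erLor0). In erAlec0 60 of them exceeded the naive level, and 18 were up and 1 down, where 14.3% of all 124512 peaks with reads were up and 9.56% down. In erCriz0 1 was up and 3 down, against 7.11% and 6.03% of all peaks, and in erLor0 6 were up and 1 down, against 7.57% and 8.95%. Other peaks within 5 Mb had medians of 0.23, 0.26 and 0.14, and less these the IGF1R peaks were at −0.37, 0.33 and 0.02. No input subtraction is stated for the peak values, so extra copies of a region would raise all its peaks, and the regional median is given for that reason.

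Along the gene the peaks differed in both sign and size. The strongest, a run of 25737 bp in an intron (chr15:98850488-98876224), was at 12.05, 11.90, 12.61 and 12.43 in naive, erCriz0, erAlec0 and erLor0 cells. The 47 peaks on the promoter side of it had medians of 0.01, 0.73 and 0.26, and 46 of them were higher in erAlec0. Beyond it 25 peaks had medians of −0.66, 0.01 and −0.43, with 3, 13 and 4 of them higher in the 3 lines. This split was made after the values had been seen and is a description. The largest difference, at an intronic peak near the 3′ end (chr15:98940337-98941530), was 4.81 (naive), 4.19 (erCriz0), 7.25 (erAlec0) and 6.45 (erLor0), with changes of −0.62, 2.45 and 1.65. An intronic peak of 6063 bp (chr15:98759403-98765465) also had changes of −0.09, 1.80 and 1.59.

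**Figure D2:**
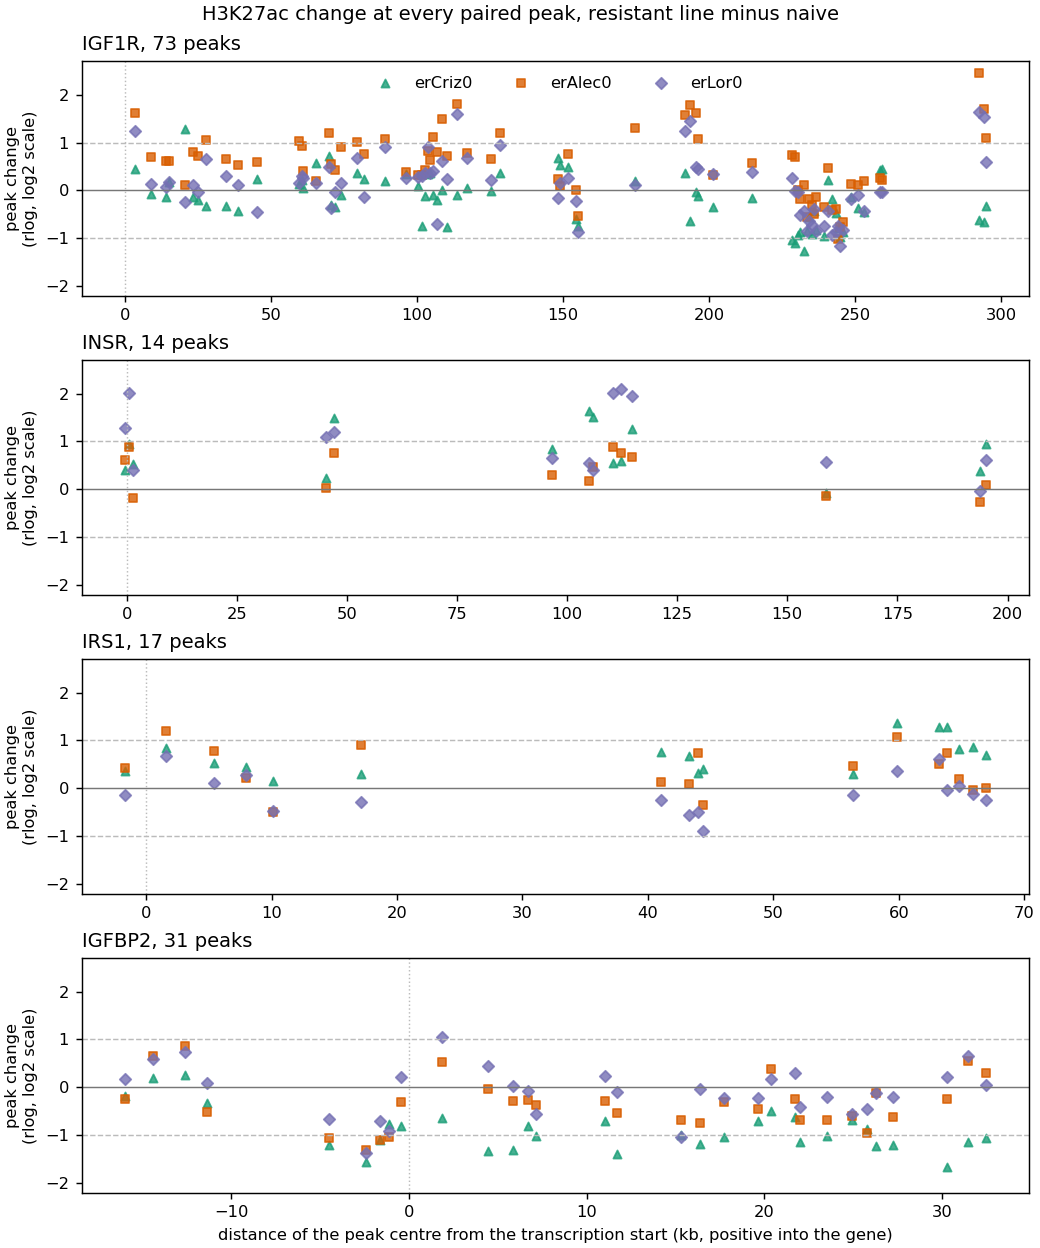
Change (rlog, log2 scale, resistant line minus naive) at every peak paired with IGF1R (73), INSR (14), IRS1 (17) and IGFBP2 (31) against the distance of the peak centre from the transcription start in kb, positive into the gene; dashed lines mark changes of 1 and −1. IGF1R peaks lay mostly above 0 in erAlec0, IRS1 peaks all above 0 in erCriz0, and IGFBP2 peaks mostly below 0 in erCriz0.

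INSR, the insulin receptor (ENSG00000171105.14, chr19:7112255-7294414, minus strand), was the weakest member per kb and had its highest RNA level in erCriz0. Its rlog was 7.08 (naive), 7.71 (erCriz0), 7.15 (erAlec0) and 7.28 (erLor0), which are changes of 0.63, 0.07 and 0.20. Among the 53 kinases it ranked 26 in naive cells, between EPHB6 and FLT4, and 20, 24 and 26 in erCriz0, erAlec0 and erLor0.

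H3K27ac at INSR was higher in the resistant lines, most of all in erLor0, where the RNA change was small. The start peak (chr19:7293130-7294410), which ends just inside the gene beside the promoter window printed above, was at 4.50 (naive), 5.44 (erCriz0), 5.38 (erAlec0) and 6.51 (erLor0). Its changes were 0.94, 0.88 and 2.01, and a separate peak that overlaps the window (chr19:7294539-7295140) changed by 0.40, 0.61 and 1.27. In erLor0 the start peaks of INSR and IGF1R were up among the 9 members and none was down, against 8.26% and 0.406% of the 11080 start peaks. Less the median of all start peaks the IGF1R change was 0.80 in erLor0, which leaves INSR alone up.

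Of the 14 peaks of INSR, 12 paired with no other gene. Over all 14 the median change was 0.71 (erCriz0), 0.39 (erAlec0) and 0.88 (erLor0), with 4, 0 and 7 peaks up and 0 down in each line. Of all peaks 7.11%, 14.3% and 7.57% were up and 6.03%, 9.56% and 8.95% down. Other peaks within 5 Mb had medians of 0.04, −0.26 and −0.03, so the INSR peaks were 0.68, 0.65 and 0.91 above their region. A cluster of 3 neighbouring peaks about 110 kb into the gene had erLor0 differences of about the size of that at the start. The intronic peak chr19:7181100-7183111 stood at 4.14 (naive), 4.73 (erCriz0), 4.90 (erAlec0) and 6.24 (erLor0), a change of 2.10 in erLor0. Its neighbours chr19:7178417-7181010 and chr19:7183442-7184529 changed by 1.94 and 2.02 in erLor0. In erCriz0 the largest difference was at another intronic peak, chr19:7188991-7189871, with a change of 1.64 there, 0.18 in erAlec0 and 0.56 in erLor0.

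IGF2R, the scavenger receptor for IGF2 (ENSG00000197081.14, chr6:159969099-160113507, plus strand), was highest in erCriz0 as well. The rlog was 11.54 (naive), 12.14 (erCriz0), 11.65 (erAlec0) and 11.67 (erLor0), with changes of 0.60, 0.11 and 0.13. The antisense gene AIRN overlaps it, and whether reads were counted by strand is not given in the sources used here. Its start peak differed by 0.28, 0.75 and 0.65, and its 19 peaks had medians of 0.19, 0.01 and −0.03. The largest peak rise was 1.21 in erAlec0 (chr6:159987297-159990975) and the largest fall −1.06 in erCriz0 (chr6:159983595-159984826), both intronic and both paired with AIRN too.

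IRS1, the adaptor that couples IGF1R and INSR to PI3K (ENSG00000169047.5, chr2:226731317-226799759, minus strand), had its highest RNA level in erCriz0, just short of the limit. The rlog was 7.78 (naive), 8.73 (erCriz0), 8.16 (erAlec0) and 7.77 (erLor0). The changes of 0.95, 0.39 and −0.00 put erCriz0 1.93-fold above naive and left erLor0 level with it. After centring each library on the median of expressed genes the erCriz0 change was 1.01, which is past the limit.

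Peaks of IRS1 followed the same order of lines. In erCriz0 all 17 were higher than naive, against 14 (erAlec0) and 6 (erLor0), and the medians were 0.68, 0.43 and −0.13. Since other peaks within 5 Mb had medians of −0.30, −0.10 and −0.05, the IRS1 peaks were 0.98, 0.52 and −0.08 above their region. The strongest peak, in the intron (chr2:226737008-226742974), was at 8.94 (naive), 10.30 (erCriz0), 10.02 (erAlec0) and 9.30 (erLor0). The start peak (chr2:226795176-226801261) was at 8.65, 9.49, 9.85 and 9.32 in the same order, so here erAlec0 and not erCriz0 was highest. With changes of 1.61 at IGF1R and 1.20 at IRS1, 2 of 9 start peaks were up in erAlec0 and 0 down, against 7.38% and 0.948% of start peaks. Less the median of all start peaks the IRS1 change was 0.92, which leaves IGF1R alone up in erAlec0.

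IRS2, the second adaptor (ENSG00000185950.9, chr13:109752695-109786583, minus strand), was lowest in erCriz0, the line in which IRS1 was highest. The rlog was 8.42 (naive), 7.996 (erCriz0), 8.30 (erAlec0) and 8.34 (erLor0), with changes of −0.42, −0.12 and −0.08. Its start peak went the other way, from 6.76 in naive to 7.80, 7.24 and 7.48, and with a change of 1.05 it was the only start peak of the 9 that was up in erCriz0, against 4.44% of all start peaks up and 0.19% down. Less the median of all start peaks in erCriz0, its change was 0.69, which is short of the limit. All 11 of its peaks paired with other genes too. A downstream peak (chr13:109742999-109743723), which also pairs with LINC00676, changed by −0.71, −1.76 and −1.62.

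IGFBP2, a ligand-binding protein that can also act on cells through integrins (ENSG00000115457.10, chr2:216632828-216664436, plus strand), was the member whose RNA passed the limit in opposite directions. The rlog was 9.68 (naive), 7.79 (erCriz0), 10.14 (erAlec0) and 10.78 (erLor0). On this scale naive cells were 3.72-fold above erCriz0, and erLor0 was 2.14-fold above naive, so erLor0 and erCriz0 differed by 2.99. Of 12701 expressed genes 11 had a larger fall in erCriz0 and 100 a larger rise in erLor0. Only 12 genes, 0.0945%, were up in at least 1 line and down in another. By the distance of their 3 changes, the expressed genes most like IGFBP2 were KRT81 (0.72), PMEPA1 (0.99) and DBP (1.02), and 0 genes lay within 0.5.

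The peaks around IGFBP2 were lower in erCriz0 as a block. Of 31 paired peaks 29 were lower there than in naive cells and 16 were down, against 6.03% of all peaks, with a median of −1.01. In erAlec0 the median was −0.31 with 4 peaks down, where 9.56% of all peaks were, and in erLor0 −0.08 with 2 down and 1 up, where 8.95% and 7.57% of all peaks were. Both counts down are near those shares. Less the median of other peaks within 5 Mb these became −0.85, −0.29 and −0.17. IGFBP5 lies next to IGFBP2, and 12 of the 31 peaks paired with both. Those 12 had a median of −1.04 in erCriz0 and the other 19 one of −0.99.

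At the promoter, as for the RNA, erCriz0 was lowest and erLor0 highest. The start peak (chr2:216632525-216633437) was at 5.30 (naive), 4.50 (erCriz0), 4.996 (erAlec0) and 5.52 (erLor0), with changes of −0.80, −0.31 and 0.22. The change in erLor0 was smaller than the median of 0.43 over all start peaks, so less that median erLor0 lay below naive. The strongest peak, just inside the gene (chr2:216633680-216636888), was at 7.70, 7.05, 8.24 and 8.75, with changes of −0.65, 0.54 and 1.05. This peak had the same order of all 4 lines as the RNA. Not every IGFBP2 peak followed this order. A weak upstream peak (chr2:216630781-216631254) had changes of −1.57, −1.31 and −1.37 in the 3 lines, and one at the 3′ end (chr2:216663311-216664059) had changes of −1.66, −0.24 and 0.22.

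IGFBP3, the main IGF carrier of blood and a growth-restraining protein in many epithelia (ENSG00000146674.15, chr7:45912245-45921874, minus strand), was lower in all 3 resistant lines. The rlog was 10.03 (naive), 8.93 (erCriz0), 7.67 (erAlec0) and 7.31 (erLor0). Naive cells were thus above the resistant lines by 2.14-fold (erCriz0), 5.14-fold (erAlec0) and 6.58-fold (erLor0). Down in all 3 lines were 31 expressed genes, or 0.244%. Larger falls than that of IGFBP3 were seen for 133 (erCriz0), 9 (erAlec0) and 8 (erLor0) genes. The genes with the most similar changes were BPIFB1 (distance 0.69), GPRIN3 (0.69) and PRSS1 (0.72).

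H3K27ac at IGFBP3 was not lower in every line. The peak over its start (chr7:45919960-45923379) was at 7.54 (naive), 8.39 (erCriz0), 7.07 (erAlec0) and 7.15 (erLor0). Its changes of 0.85, −0.47 and −0.39 had the sign of the RNA in erAlec0 and erLor0 and the opposite sign in erCriz0. Only 1 other peak was paired with the gene, so IGFBP3 had 2 in all, both shared with another gene.

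IGFBP4, a binding protein that is cleaved by PAPPA (ENSG00000141753.7, chr17:40443450-40457725, plus strand), was lowest in erCriz0 and highest in erLor0. The rlog was 9.68 (naive), 9.10 (erCriz0), 9.52 (erAlec0) and 9.94 (erLor0), with changes of −0.58, −0.16 and 0.26. The start peak differed little, by 0.23, −0.04 and 0.26. Its 8 peaks had medians of −0.12, −0.72 and −0.49, and all 8 were shared with other genes, the strongest covering the start of TNS4.

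IGFBP6, which binds IGF2 in preference to IGF1 (ENSG00000167779.9, chr12:53097436-53102345, plus strand), was highest in naive cells. The rlog was 6.85 (naive), 6.18 (erCriz0), 6.38 (erAlec0) and 6.39 (erLor0), with changes of −0.67, −0.47 and −0.46. Lower levels in all 3 lines were common, in 24.5% of expressed genes. The start peak (chr12:53097598-53099596) changed by 0.40, −0.51 and −0.63, so that its sign was that of the RNA in erAlec0 and erLor0. In erCriz0 all 4 binding proteins were below naive, and 3 of their 4 start peaks were above it. The median over all start peaks was 0.35 there. IGFBP4 (0.23) lay below that median, IGFBP6 (0.40) near it and IGFBP3 (0.85) above it.

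Set side by side, RNA and start peak had the same sign for 5 (erCriz0), 7 (erAlec0) and 7 (erLor0) of the 9 members. Over the 11080 expressed protein-coding genes the share was 51.7%, 50.9% and 51.1%. Over the 178 peaks of the axis, each counted once, the numbers up and down were 9 and 20 (erCriz0), 21 and 9 (erAlec0), and 14 and 6 (erLor0). As shares of the 178 these were, in the same order, 5.06% and 11.2%, 11.8% and 5.06%, and 7.87% and 3.37%. Over all peaks the shares were 7.11% and 6.03%, 14.3% and 9.56%, and 7.57% and 8.95%, so the shares up were near or below those of all peaks, and the share down was above that of all peaks in erCriz0 only. IGFBP2 gave 16 of the 20 down in erCriz0, and IGF1R 18 of the 21 up in erAlec0.

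**Figure D3:**
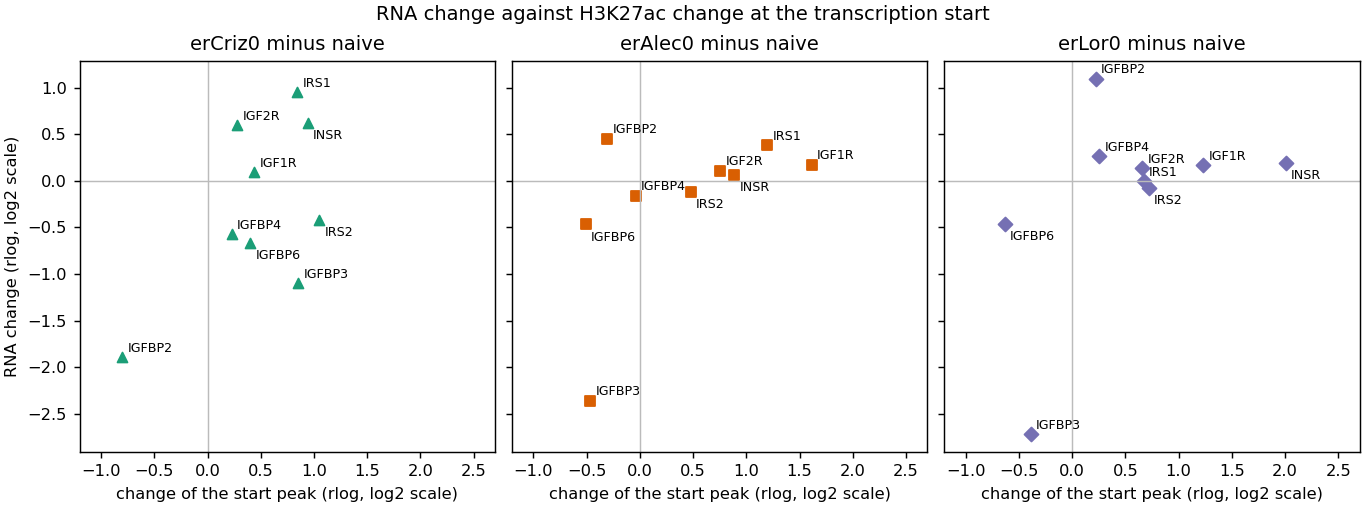
RNA change against the change of H3K27ac at the transcription start for the 9 members in erCriz0, erAlec0 and erLor0 (both rlog, log2 scale, resistant line minus naive; 1 point per gene). In erCriz0 IGFBP2 had a lower start peak (−0.80) with RNA at −1.90, whereas IGFBP3 had a higher one (0.85) with RNA at −1.10. INSR in erLor0 had the largest start peak change, 2.01, with RNA at 0.20.

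The genes around the axis were ligands, INSRR, other binding proteins and genes that act on them, and IGF2 mRNA-binding proteins. Adaptors, receptor dampers, and PI3K, mTOR, FOXO and glucose genes were listed too. The lists held 95 genes, none of them a member. Of these 79 were expressed. The numbers up and down were 6 and 2 (erCriz0), 3 and 2 (erAlec0), and 0 and 1 (erLor0). As shares of the 79 these were 7.59% and 2.53%, 3.8% and 2.53%, and 0% and 1.27%. Over all expressed genes the shares were 2.65% and 1.65%, 2.46% and 2.07%, and 1.1% and 0.74%. Apart from the share up in erCriz0, those of the lists were near these. The lists were chosen with earlier results of these data known, so no excess over all expressed genes can be read from them. The median change was 0.10, 0.09 and 0.06, against −0.02, 0.00 and −0.00 over all expressed genes. A total of 11 genes passed the limit in at least 1 line.

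RNA of the ligand IGF1 was close to 0 in all 4 libraries, between −0.10 and 0.06, and IGFALS and INSRR were also below the minimum. IGF2, INS, IGFBP1, HTRA1 and IRS4 were not among the 43869 genes with values, so their RNA could not be assessed. IGFBP5, the neighbour of IGFBP2, was at 5.56 (naive), 4.61 (erCriz0), 4.71 (erAlec0) and 5.26 (erLor0). It was below naive in each resistant line, so it did not share the higher erLor0 level of IGFBP2. IGFBPL1 changed by −0.68, −0.77 and 0.01, and IGFBP7 was below the minimum in all 4 libraries.

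Among genes that act on the binding proteins, PAPPA2, a protease that cleaves IGFBP3 and IGFBP5, changed by 1.32, 0.13 and 0.35 in erCriz0, erAlec0 and erLor0. STC1, an inhibitor of the PAPPA proteases, changed by 0.25, 1.55 and 0.47. ADAM28, a metalloprotease that can cleave IGFBP3, changed by 1.10, 0.04 and −0.72. Each of the 3 was up in 1 line only. Of the 5 expressed genes on this list 4 (erCriz0), 4 (erAlec0) and 3 (erLor0) were higher than naive. STC2, on the same list, was at 11.93 in naive cells against 6.06 for STC1. It changed by −0.22, −0.51 and −0.20, and PAPPA was below the minimum.

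Of 13 expressed dampers of receptor signalling, SOCS2 and SOCS3 were up in erCriz0 and erAlec0, where 2.65% and 2.46% of all expressed genes were. SOCS2, which restrains growth hormone and IGF1R signalling, was at 4.88 (naive), 7.96 (erCriz0), 6.67 (erAlec0) and 5.60 (erLor0). SOCS3, which can bind INSR and IRS proteins and is induced by STAT3, was at 8.21, 10.53, 9.45 and 8.56 in the same order. Both were highest in erCriz0 and second in erAlec0, with changes of 3.07 and 1.79 for SOCS2 and 2.32 and 1.24 for SOCS3, and in neither was erLor0 past the limit. GRB14, an adaptor that blocks the INSR kinase, was down in erCriz0, with changes of −1.01, −0.78 and −0.16.

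Downstream, none of the 10 other adaptors and none of the 13 mTOR genes passed the limit in any line. Of all expressed genes 0.74% to 2.65% passed it per line and direction, so counts of 0 are near those shares. PIK3R1, the regulatory subunit of PI3K, changed by 0.35, −1.11 and −0.71. Of 16 expressed FOXO genes and targets 12 were higher in erCriz0, with a median of 0.70, against 0.02 in erAlec0 and 0.08 in erLor0. Over all expressed genes the median was −0.02, 0.00 and −0.00 in the same order of lines. TXNIP (−0.48), FOXO6, PIK3IP1 (−0.33) and GADD45A (−0.03) were lower in erCriz0. Activity of FOXO factors was not tested. FBXO32, a ubiquitin ligase, was up in erCriz0 at 1.56, and BCL6, a transcriptional repressor, at 1.02, whereas FOXO6 was down at −1.02. TXNIP, an inhibitor of glucose uptake and thioredoxin, was at 12.995 (naive), 12.52 (erCriz0), 11.99 (erAlec0) and 9.99 (erLor0). It was the only listed gene down in erLor0, with a change of −3.01.

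**Figure D4:**
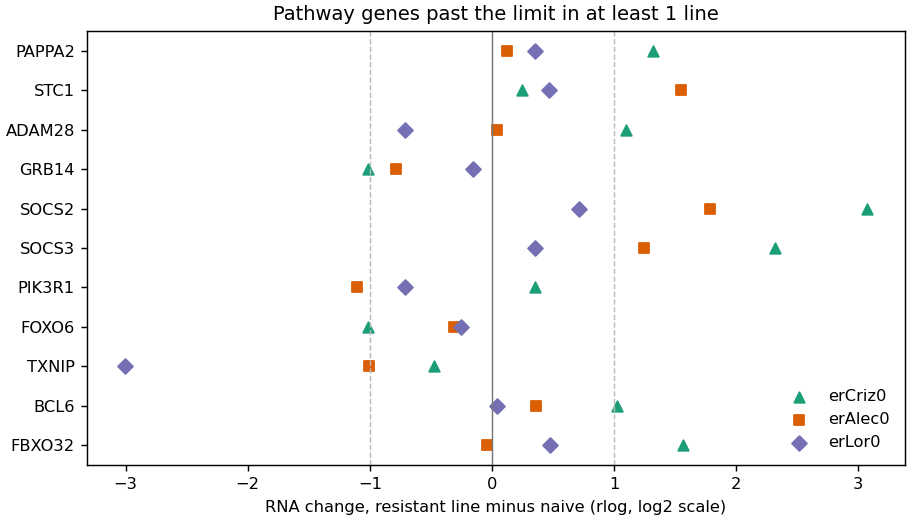
RNA change (rlog, log2 scale, resistant line minus naive) of the 11 listed genes past the limit in at least 1 line, 1 point per line; dashed lines mark changes of 1 and −1. SOCS2 (3.07) and SOCS3 (2.32) lay farthest to the right in erCriz0 and TXNIP (−3.01) farthest to the left in erLor0.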

How the data were processed

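For RNA, the authors used HISAT2 on hg38 and then HTSeq-count. For H3K27ac they used BWA, a mapping quality minimum of 25, MACS2 for peaks, which were merged over 4 samples, and featureCounts. The authors deposited 1 table of log2 values (DESeq2 rlog) with 1 row per peak and gene at most 20 kb apart. Its columns of correlations and their p-values were not used, and 0 sample columns were left unmapped. Versions are not given in the sources used here.

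Changes were computed against naive cells with Python 3.11.15, numpy 2.4.6 and pandas 2.3.3. Sequences were read with pyfaidx 0.9.0.4 and plots drawn with matplotlib 3.10.9. Genes followed GENCODE 44, in which 34115 of 34115 identifiers of the same version had identical coordinates. The start peak is the peak over or nearest, within 1000 bp, to the canonical start. Peaks at 0 in all libraries were left out of the background. The genes named included all members, ligands, other binding proteins and listed genes past the limit. Also named were ALK and the kinases ranked next to IGF1R and INSR. For a member whose range reached 1, the 3 genes most like it by Euclidean distance were given. The start peak was given for each member, and the strongest or most changed peaks for some of them only. Members and lists were chosen with earlier results of these data known. The scripts were tested on simulated data. With 1 library per line no test was run.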

Additional observations from a re-analysis of the deposited data

Results flagged for a closer look

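IGFBP2 RNA differed in opposite directions between resistant lines, with a change of −1.90 in erCriz0 and 1.10 in erLor0 against the same naive library. The difference was not tested, since each line has 1 library. H3K27ac at the strongest IGFBP2 peak had changes of −0.65 and 1.05 in the same lines. The start peak changed by −0.80 and 0.22. Over all 31 paired peaks the median was −1.01 and −0.08, so most of them were not higher in erLor0.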

How the results depend on the processing

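No paired analysis was possible because each line has 1 library of each kind. Of 315 values under other settings, 282 of them planned at the outset, 265 were rated the same. For a count this meant equal or within 1.5-fold. For a change it meant the same side of the limit. A median short of the limit also had to move by no more than the spread over the member's peaks. Some values could not differ from the reported ones. Every member was expressed, so dropping the filter on low genes left their counts as they were. For IGF1R, IGF2R, IRS1 and IGFBP3 the peaks within 5 kb were all of their paired peaks. Such values were rated the same and are included in the 315. The sign changed in 20, each with a reported value of at most 0.28 in size, among them IGF1R RNA in erCriz0 (−0.0092 after quantile normalization) and, less the median of start peaks, the start peaks of IGF2R in erCriz0 (−0.07) and IGFBP2 in erLor0 (−0.21). For the others the cause was not tested beyond what the setting itself fixes. At a limit of log2 1.5, 3 members were up in erCriz0, the listed genes gave 18, 7 and 4 up and 11, 6 and 3 down in erCriz0, erAlec0 and erLor0, and the peaks 27, 56 and 34 up and 49, 27 and 28 down. At a limit of 2, 0 members were down in erCriz0 and 0 up in erLor0, and peaks gave 0, 1 and 3 up and 0 down. Centring put 1 member up in erCriz0, IRS1 at 1.01, and left 0 listed genes down there and 1 in erAlec0, and quantile normalization left 1 in erCriz0. Leaving out IGF1R peaks and centring start peaks were chosen after seeing the data. Without IGF1R 3 peaks were up in erAlec0 and 8 in erLor0, and among peaks reaching log2 of 15 reads 4 were down in erAlec0. The INSR median in erLor0 was 1.15 within 5 kb, 1.15 at peaks of that gene alone and 1.20 at peaks above the minimum. IRS1 less its region was 1.02 in erCriz0 with 2 Mb. IGFBP2 in erCriz0 was −0.93 centred and −0.94 after quantile normalization. IGFBP3 was 0.85, 0.92 and 0.74 in erCriz0 above the minimum, centred and quantile normalized, and 0.93 less a 2 Mb region. It was −0.47 in erAlec0 and −0.39 in erLor0 above the minimum, −0.21 in erLor0 when centred and −0.073 less a 2 Mb region. IGFBP6 within 5 kb was −0.51 in erAlec0 and −0.63 in erLor0. Less the median of start peaks, the start peaks of IGF1R in erLor0 (0.80) and IRS1 in erAlec0 (0.92) and IRS2 in erCriz0 (0.69) no longer passed the limit, whereas IGFBP2 in erCriz0 (−1.15) and IGFBP6 in erLor0 (−1.06) did. IRS2, IGFBP3, IGFBP4 and IGFBP6 have no peak of their own, so that setting gave no value there.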
